A study of Mus musculus with 2 samples.

Results

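The clustered replication histone genes are the 67 genes of the deposited gene list whose symbols start with Hist1h, Hist2h, Hist3h or Hist4h, out of 31053 genes in all. Membership was decided by symbol alone, and the set was chosen with earlier results of these data known. Of these 67 genes, 54 lie in the Hist1 cluster on chromosome 13, 10 in Hist2 on chromosome 3, 2 in Hist3 on chromosome 11 and 1 (Hist4h4) on chromosome 6. By the protein they encode, 6 are linker histone H1 genes, 18 encode H2A, 18 H2B, 12 H3 and 13 H4.

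The study examined what the loss of Myrf, which encodes a membrane-associated transcription factor, does to the developing mouse eye. It used single-cell RNA sequencing of eye cups at several developmental stages, and only the libraries from pups at postnatal day 0 (P0) are described here. There was 1 library of Myrf fl/fl eye cups (the control library) and 1 library of Rx>cre Myrf fl/fl eye cups (the mutant library), and each pooled 3 eye cups. Animals of both genotypes carry the loxP-flanked Myrf alleles, and the Rx promoter drives cre across the early eye field, so that neural retina as well as retinal pigment epithelium (RPE) descends from cells in which cre was made. With 1 library per genotype no difference has a replicate check: every interval below is a 95% interval for counting error alone (exact Poisson for a level, exact binomial for a share, exact conditional binomial for a ratio), and no test of the genotypes was made.

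The control library held 79017429 unique molecular identifiers (UMIs, tags that each mark 1 captured transcript) over 14305 barcodes, and the mutant library 76272867 over 12222. Filters left 12485 control and 10813 mutant cells, whose median depth was 4272 and 4821 UMIs. The median depth of RPE-like cells was 2449 UMIs (control) and 10166 UMIs (mutant). The libraries shared 59 barcode sequences. In RPE-like cells Myrf itself had 743 UMIs in the control library, a level of 225.5 CPM (counts-per-million, relative to all UMIs of the same group of cells), and 64 UMIs in the mutant library, 26.1 CPM. Levels below are CPM, and the ratio of a gene between groups is taken on log2(CPM + 1).

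Replication histone genes supply the protein that wraps newly made DNA, so their messenger RNA is abundant while a cell copies its genome and is removed afterwards. The H2A, H2B, H3 and H4 proteins form the nucleosome core and H1 binds the DNA that links nucleosomes. Most of these messages end in a short stem-loop that binds the protein SLBP instead of in a poly(A) tail, but some of the genes also make polyadenylated messages, as cells that have left the cycle do. These libraries were primed on poly(A), so a message without a tail is expected to be captured poorly, and levels here are not a measure of all histone mRNA.

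To show which transcript end each gene is annotated with, the stem-loop sites of the genes that carry the results are given below, read from GENCODE M21 transcripts (GRCm38) in the 5′ to 3′ direction. Capitals mark the stem-loop, whose 6-base arms pair around a 4-base loop. The H4 genes Hist1h4d and Hist1h4i differ in the arms or loop from the form of the other families.

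Hist1h2ae: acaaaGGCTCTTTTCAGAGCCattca
Hist1h2ap: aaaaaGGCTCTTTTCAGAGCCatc
Hist3h2ba: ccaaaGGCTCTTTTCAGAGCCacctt
Hist3h2a: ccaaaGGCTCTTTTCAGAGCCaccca
Hist1h1c: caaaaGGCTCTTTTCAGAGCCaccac
Hist1h3a: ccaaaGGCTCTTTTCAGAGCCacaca
Hist1h4d: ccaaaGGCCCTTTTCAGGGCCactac
Hist1h4i: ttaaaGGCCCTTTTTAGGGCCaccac

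A stem-loop with fully paired arms was found in 46 of the 67 genes, and a match with up to 1 mismatch in 58. The second search covered the whole transcript and did not require the arms to pair, so such a match need not be a stem-loop at the 3′ end. Among 58725 protein-coding transcripts of other genes, 0.288% held the paired form. The form printed for Hist1h2ae was the most frequent, in 26 genes of the H1, H2A, H2B and H3 families. All 12 H4 genes with a paired loop had other forms. The form of Hist1h4d was in 7 of them.

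The annotated transcript ran more than 100 bases past the loop in 23 genes, ended within 100 bases of it in 23, and had no paired loop in 21. A loop past an annotated end could not be searched for, so the last group can hold genes whose annotation stops short of the loop. A poly(A) signal (AATAAA or ATTAAA) stood in the last 50 bases of an annotated transcript of 17 genes, 12 of which were among the 23 that ran past the loop and 2 among the 23 that ended at it. Of the other protein-coding transcripts, 50.2% had such a signal. The last 30 bases of 4 genes that recur below are printed next, with the signal in capitals.

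Hist1h2ae: ccAATAAAtgggtcaatttttttcagattc
Hist3h2ba: attAATAAAtttggttcaattttggccaca
Hist1h1c: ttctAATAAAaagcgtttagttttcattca
Hist1h4i: tctgtttacATTAAAagtattctatgctaa

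The transcript of Hist1h2ae went on for 151 bases after its loop, that of Hist3h2ba for 169, that of Hist1h1c for 840 and that of Hist1h4i for 330. The transcript of Hist1h2ap ended 3 bases after its loop. Hist1h2bc, which encodes an H2B, had no paired loop in its annotated transcripts, only a match with 1 mismatch.

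The genes resemble each other, and that limits which of them a read can be given to. In 26 of the 67 genes, fewer than 50% of the 91-base windows of their transcripts were found in no other gene, and 6 genes had all windows to themselves. For Hist1h2ap, which had the second-highest count of all 67, the share was 7.65%, against 68.2% for Hist1h2ae, 91.8% for Hist3h2ba and 69.9% for Hist3h2a, so the split between Hist1h2ap and its near-copies is uncertain. Hist1h1e and Hist1h2be overlap on the same strand, as do Hist3h2a and Trim17, and reads in those overlaps cannot be told apart either.

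Across all barcodes the 67 genes had 162877 UMIs (2061 CPM) in control barcodes and 189783 UMIs (2488 CPM) in mutant barcodes. Counts were unequal: 58 genes had at least 200 UMIs over both libraries, 6 had fewer, and 3 had none (Hist1h2aa, Hist1h2ba and Hist1h2bq). Because 0% of the transcript windows of Hist1h2bq are unique, its count cannot show whether it is expressed. The 5 highest genes, Hist1h2ae, Hist1h2ap, Hist3h2ba, Hist1h1e and Hist1h1c, held 53.5% (control) and 55.3% (mutant) of the histone UMIs. Hist1h1t, a testis H1, had 7 and 2 UMIs.

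Retinal progenitor-like cells had the highest summed level, 3820 CPM (3793 to 3846) in 4271 control cells and 3856 CPM (3832 to 3880) in 4927 mutant cells. Neurogenic-like cells followed with 3341 CPM (3291 to 3392) in the control and 3720 CPM (3670 to 3770) in the mutant library. The intervals of these classes do not overlap within either library. The progenitor-like level was uneven: of its 4 clusters, clusters 0 and 3 had 6916 and 4953 CPM in the control and 7086 and 5474 CPM in the mutant library. Clusters 1 and 2, with 1109 and 1159 of the control and 1474 and 1245 of the mutant cells, had 727 and 954 CPM and 905 and 967 CPM, below the sums of amacrine-like, photoreceptor-like and RPE-like cells given next.

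Amacrine-like cells came next of the retinal classes, at 2007 CPM (1963 to 2052) and 2128 CPM (2090 to 2167), above photoreceptor-like cells at 1291 CPM (1257 to 1326) and 1552 CPM (1518 to 1587). RPE-like cells had 1191 CPM (1154 to 1229) and 1305 CPM (1261 to 1351). Surface epithelium-like cells had 1199 CPM (1139 to 1261) and 1223 CPM (1149 to 1300), and their intervals overlap those of RPE-like cells in both libraries. White blood-like cells had 1383 CPM (1328 to 1440) and 1568 CPM (1476 to 1665).

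Endothelial-like cells had 729 CPM (701 to 758) and 722 CPM (684 to 761). Mesenchyme or pericyte-like cells had 411 CPM (401 to 421) and 526 CPM (513 to 540), and red blood-like cells 442 CPM (401 to 487) and 498 CPM (453 to 546). The lowest sums were thus outside the neural retina, and amacrine-like neurons, which no longer divide, had more than photoreceptor-like cells.

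**Figure D1:**
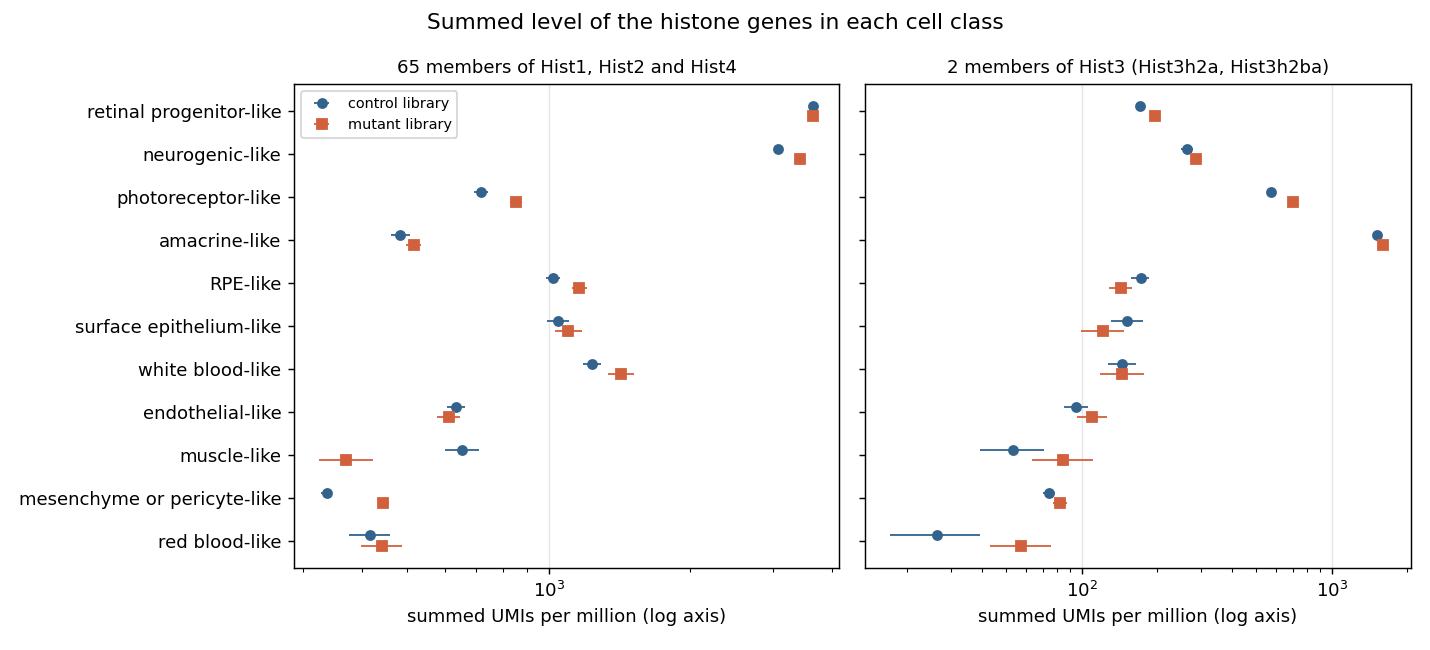
Summed level (CPM, log axis) in 11 of the 12 cell classes (melanocyte-like cells, 30 and 18 in number, are not drawn) of the control (circles) and mutant (squares) libraries, with 95% Poisson intervals, for the 65 genes of Hist1, Hist2 and Hist4 (left) and for Hist3h2a with Hist3h2ba (right). The 65 genes were highest in retinal progenitor-like cells (3648 and 3659 CPM), whereas the Hist3 genes were highest in amacrine-like cells (1524 and 1613 CPM).

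Most histone UMIs of amacrine-like cells were of the 2 Hist3 genes, 5992 of 7890 in the control and 8838 of 11662 in the mutant library. Hist3h2ba, an H2B gene, had 1246 CPM (1212 to 1282) in control and 1328 CPM (1298 to 1359) in mutant amacrine-like cells, against 127 CPM (122 to 132) and 149 CPM (144 to 154) in retinal progenitor-like cells. Its neighbour Hist3h2a, an H2A gene, had 278 CPM (262 to 295) and 285 CPM (271 to 299) in amacrine-like cells and 44.3 CPM and 48.1 CPM in retinal progenitor-like cells. The amacrine-like over progenitor-like log2 ratios were 3.29 and 3.15 for Hist3h2ba and 2.62 and 2.54 for Hist3h2a.

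The other 65 genes summed to 483 CPM (461 to 505) and 515 CPM (497 to 535) in amacrine-like cells, against 416 CPM (376 to 459) and 440 CPM (398 to 486) in red blood-like cells. Photoreceptor-like cells stood between amacrine-like and progenitor-like cells for Hist3h2ba, with 410 CPM (390 to 429) and 504 CPM (485 to 524), and for Hist3h2a, with 164 CPM and 196 CPM. Mesenchyme or pericyte-like cells had 30.3 CPM and 35.5 CPM of Hist3h2ba. The ratio of Hist3h2a to Hist3h2ba UMIs was 0.223 and 0.214 in amacrine-like cells and 0.349 and 0.324 in progenitor-like cells, and it was above 1 in RPE-like cells (1.33 and 1.15) and in mesenchyme or pericyte-like cells (1.44 and 1.31).

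**Figure D2:**
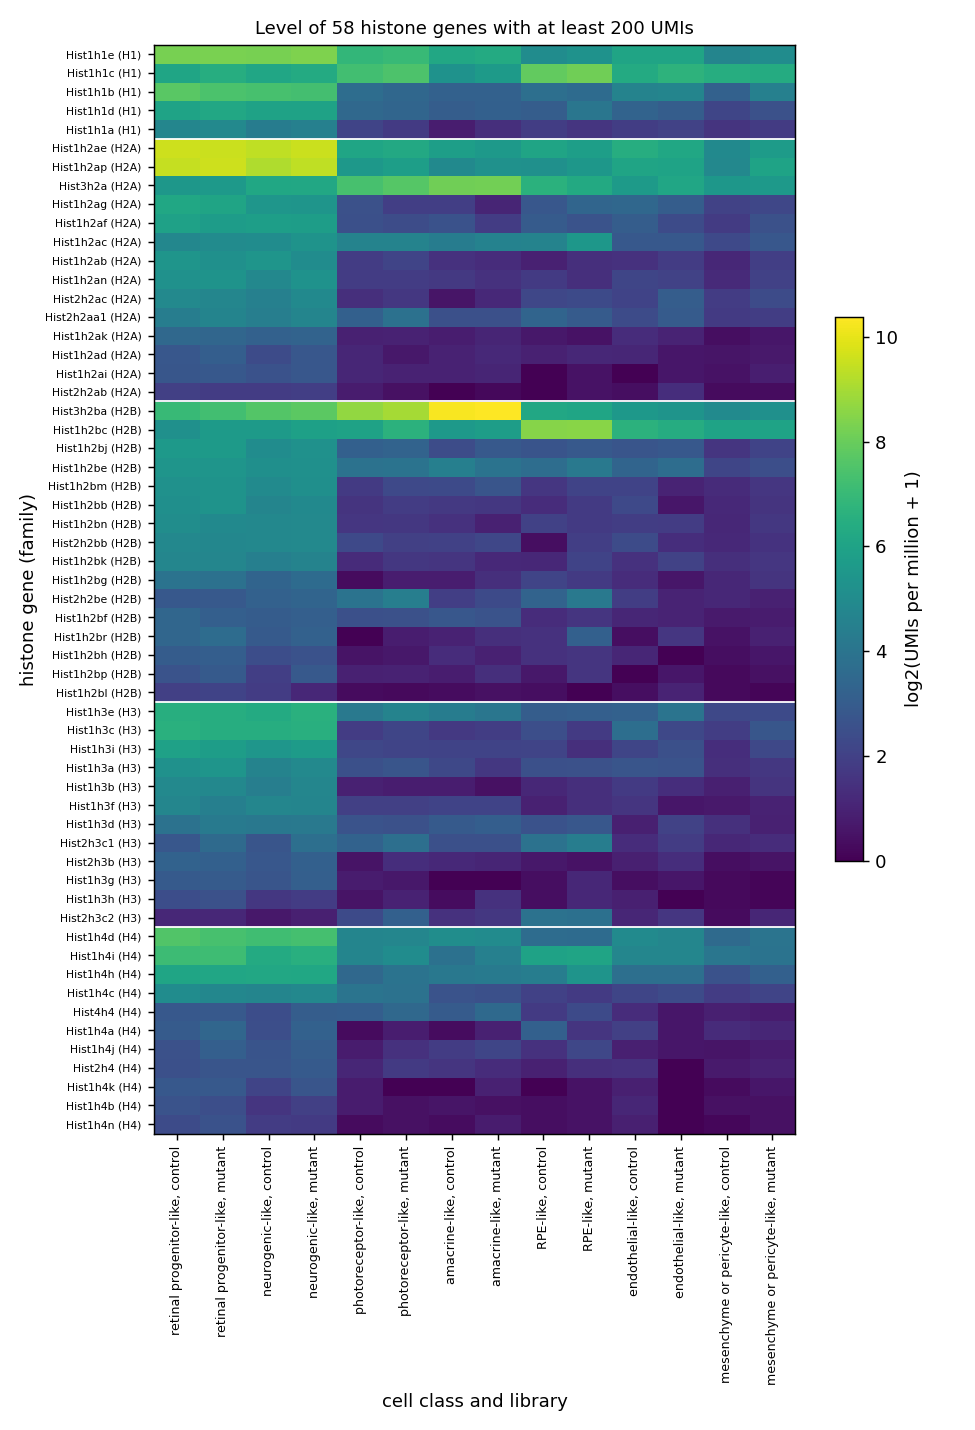
Level, as log2(CPM + 1), of the 58 histone genes with at least 200 UMIs (rows, grouped by family) in 7 cell classes of each library (columns). Hist3h2ba is brightest in amacrine-like cells, Hist1h2bc in RPE-like cells, and most other rows in retinal progenitor-like and neurogenic-like cells.

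RPE-like and surface epithelium-like cells had a different pair of genes at a high level. Hist1h2bc, an H2B gene, had 359 CPM (339 to 380) in control and 374 CPM (350 to 399) in mutant RPE-like cells, and 320 CPM (289 to 353) and 232 CPM (201 to 267) in surface epithelium-like cells. It had 35.5 CPM and 49.0 CPM in retinal progenitor-like cells, so that the RPE-like over progenitor-like log2 ratios were 3.30 and 2.91. Hist1h1c, a linker histone gene expressed in many nondividing tissues, had 238 CPM (222 to 256) and 280 CPM (259 to 301) in RPE-like cells and 469.3 CPM (432 to 509) and 337 CPM (299 to 379) in surface epithelium-like cells.

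Hist1h1c had 67.2 CPM and 87.5 CPM in retinal progenitor-like cells, for RPE-like over progenitor-like log2 ratios of 1.81 and 1.66, and 38.4 CPM and 48.9 CPM in amacrine-like cells. Photoreceptor-like cells had 151 CPM and 178 CPM of it, log2 ratios of 1.15 and 1.02 over progenitor-like cells. Hist2h3c2, an H3 gene, had 46 and 32 UMIs in RPE-like cells (14.0 CPM and 13.0 CPM) and 1.21 CPM and 1.23 CPM in progenitor-like cells. Only 38.1% of its transcript windows are unique, and its counts are small.

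Most of the measured histone genes were at least 2-fold lower in amacrine-like, photoreceptor-like and RPE-like cells than in progenitor-like cells of both libraries. Of the 61 genes with at least 20 UMIs over both classes in each library, 46 were at least 2-fold lower in amacrine-like than in progenitor-like cells (14.0% of all genes) and 2 at least 2-fold higher (11.9% of all genes), namely Hist3h2a and Hist3h2ba. In photoreceptor-like cells 47 of the 61 were lower (14.6% of all genes) and 5 higher (13.1%), Hist1h1c, Hist2h2be, Hist2h3c2, Hist3h2a and Hist3h2ba. In RPE-like cells 47 were lower (17.6% of all genes) and 3 higher (13.8%), Hist1h1c, Hist1h2bc and Hist2h3c2.

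In mesenchyme or pericyte-like cells 56 of the 61 were lower (19.5% of all genes) and 0 higher (18.0%). The median log2 ratio of the histone genes was -2.13 and -2.18 for amacrine-like, -2.24 and -2.19 for photoreceptor-like, -2.18 and -2.08 for RPE-like and -2.81 and -2.74 for mesenchyme or pericyte-like cells. Over all genes the medians of these comparisons lay between -0.28 and 0.05.

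Genes with low ratios included core and linker histone genes. Hist1h3c, an H3 gene, had 9 UMIs (2.29 CPM) in control amacrine-like cells against 1987 UMIs (96.1 CPM) in progenitor-like cells, a log2 ratio of -4.88, and -4.56 in the mutant library. Hist1h1b, an H1 gene used by dividing cells, had ratios of -4.48 and -4.22 in amacrine-like and -4.02 and -3.96 in photoreceptor-like cells. Hist1h2ap had -4.55 and -4.31 in amacrine-like and -4.29 and -4.08 in RPE-like cells. From the Hist2 cluster, Hist2h2bb had -4.47 in control RPE-like cells, on 1 UMI there, and Hist2h2ac -4.30 in control amacrine-like cells, on 2 UMIs.

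These cycle-linked genes also had UMIs outside the retina. Hist1h2ap had 29.5 CPM and 37.2 CPM in amacrine-like cells and 45.9 CPM and 56.1 CPM in photoreceptor-like cells, against 75.2 CPM and 56.3 CPM in red blood-like cells. Hist1h2ae had 54.7 CPM and 47.6 CPM in amacrine-like and 94.2 CPM and 92.7 CPM in red blood-like cells. Mesenchyme or pericyte-like cells had 27.9 CPM and 64.4 CPM of Hist1h2ap and 29.2 CPM and 50.4 CPM of Hist1h2ae. Amacrine-like cells were thus below red blood-like cells for both genes, but for Hist1h2ap in the mutant library on 204 and 51 UMIs, with intervals that overlap. In the control library they were above mesenchyme or pericyte-like cells for Hist1h2ae, while the intervals of Hist1h2ap overlap (24.4 to 35.4 and 25.4 to 30.6 CPM). How much of these low levels is free RNA was not tested.

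Genes whose transcripts are annotated past the stem-loop had less negative medians outside the progenitors. In control amacrine-like cells, the 22 measured genes of this kind had a median amacrine-like over progenitor-like log2 ratio of -1.34, against -2.93 for 22 genes that end at the loop and -2.55 for 18 with no paired loop. In the mutant library these medians were -1.69, -2.78 and -2.19. In photoreceptor-like cells they were -1.44, -2.51 and -2.56 in the control and -1.56, -2.44 and -2.63 in the mutant library, and in RPE-like cells -1.41, -2.63 and -2.81 and then -1.39, -2.41 and -2.55.

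The ranges overlapped widely, and the genes that lay above the progenitor level were few. Of the measured genes that ended at the loop, 0 were above the progenitor level in amacrine-like, photoreceptor-like or RPE-like cells of either library. Of those that ran past it, 4 were above in amacrine-like cells of each library, 6 in photoreceptor-like cells of each and 5 in RPE-like cells of each. Of those with no paired loop, Hist1h2bc was above in all 3 classes and Hist2h2be in photoreceptor-like and RPE-like cells of each library. Of all genes, 47.9% (control) and 47.7% (mutant) were above the progenitor level in amacrine-like, 52.2% and 50.4% in photoreceptor-like and 43.9% and 40.1% in RPE-like cells. The 23 genes that run past the loop held 91.7% and 91.4% of histone UMIs in amacrine-like cells, and 83.0% and 81.8% in photoreceptor-like cells, against 51.9% and 52.1% in progenitor-like cells. Without the 2 Hist3 genes the shares were 65.6% and 64.5% in amacrine-like and 69.4% and 66.8% in photoreceptor-like cells, against 49.6% and 49.5%.

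**Figure D3:**
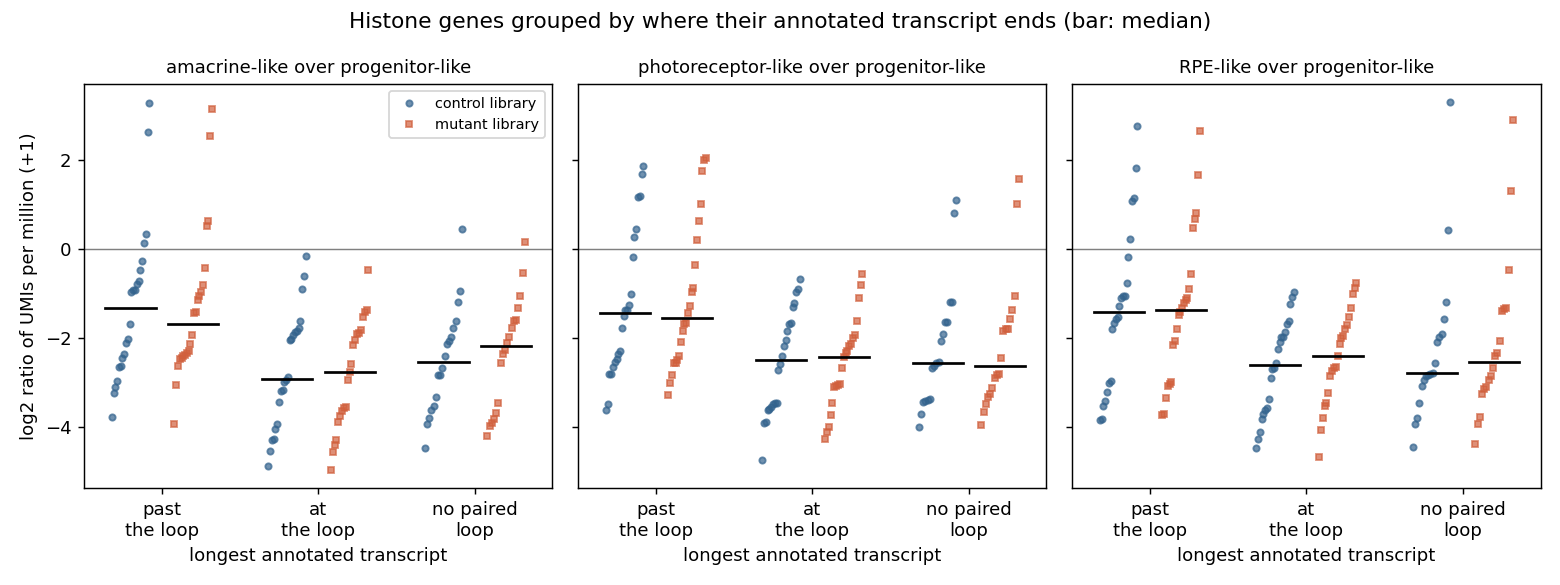
Log2 ratio of each histone gene (points, at least 20 UMIs) between amacrine-like, photoreceptor-like or RPE-like cells and retinal progenitor-like cells, in the control (circles) and mutant (squares) libraries, grouped by whether the longest annotated transcript runs past the stem-loop, ends within 100 bases of it or has no paired loop. Black bars are medians; in the amacrine-like comparison they lie at -1.34, -2.93 and -2.55 in the control library.

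The promoters of Hist3h2ba and Hist3h2a, the genes highest in amacrine-like cells, are printed beside those of Hist1h2ae and Hist1h4d, which were highest in progenitor-like cells. They are RefSeq promoters on GRCm38.p6, from 250 bases before to 50 bases after a RefSeq start, on the gene's strand. The annotated start used for the transcripts is at that offset in 17 of the 60 genes with a matched promoter and elsewhere in or near the window in the others, among them Hist3h2ba and Hist1h4d. Capitals mark the CCAAT box (CCAAT, read as ATTGG on the other strand), the TATA box (TATAAA, or TTTATA on the other strand) and the octamer (ATTTGCAT, or ATGCAAAT on the other strand). Hist3h2ba lies at chr11:58948661-58948960 (plus strand), Hist3h2a at chr11:58954435-58954734 (plus strand), Hist1h2ae at chr13:23571171-23571470 (minus strand) and Hist1h4d at chr13:23581318-23581617 (plus strand).

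Hist3h2ba: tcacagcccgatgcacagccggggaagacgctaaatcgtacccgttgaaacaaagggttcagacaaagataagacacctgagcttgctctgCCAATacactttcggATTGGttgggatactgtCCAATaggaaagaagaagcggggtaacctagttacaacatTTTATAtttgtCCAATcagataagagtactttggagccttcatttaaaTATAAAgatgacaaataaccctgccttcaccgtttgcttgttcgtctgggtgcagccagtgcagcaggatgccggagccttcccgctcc
Hist3h2a: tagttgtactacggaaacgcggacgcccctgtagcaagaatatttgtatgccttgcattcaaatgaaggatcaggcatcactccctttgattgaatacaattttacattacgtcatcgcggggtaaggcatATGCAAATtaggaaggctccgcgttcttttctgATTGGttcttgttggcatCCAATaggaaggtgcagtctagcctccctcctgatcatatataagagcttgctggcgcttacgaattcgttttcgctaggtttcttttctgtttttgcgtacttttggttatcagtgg
Hist1h2ae: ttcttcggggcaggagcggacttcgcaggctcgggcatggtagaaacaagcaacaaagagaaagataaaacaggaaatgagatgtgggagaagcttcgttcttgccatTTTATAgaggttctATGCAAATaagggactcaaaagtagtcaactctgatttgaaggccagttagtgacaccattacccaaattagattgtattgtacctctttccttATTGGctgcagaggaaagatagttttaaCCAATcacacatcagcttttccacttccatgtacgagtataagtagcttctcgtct
Hist1h4d: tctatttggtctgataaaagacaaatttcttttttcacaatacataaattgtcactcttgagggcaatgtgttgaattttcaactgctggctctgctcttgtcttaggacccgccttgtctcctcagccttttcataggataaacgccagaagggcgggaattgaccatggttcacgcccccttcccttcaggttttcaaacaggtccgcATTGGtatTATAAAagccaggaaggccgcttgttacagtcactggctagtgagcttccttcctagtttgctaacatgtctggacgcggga

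Hist3h2ba held 4 CCAAT boxes and 2 TATAAA matches on either strand, and Hist3h2a 2 CCAAT boxes and 1 octamer (ATTTGCAT). A promoter was matched for 60 of the 67 genes. CCAAT on either strand was in 51 of these 60 and in 37.9% of all 27025 promoters of the same length, and it was in 3 of 12 H4 promoters but in all 48 of the other families. TATAAA was in 34 of the 60 and in 14.2% of all promoters. The octamer was in 7 of 17 H2A and 6 of 16 H2B promoters, in 0 of the H1, H3 and H4 promoters, and in 1.75% of all promoters. Windows of genes that start close together on opposite strands overlap, so the same site can count for an H2A and an H2B gene.

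Many H2A and H2B genes share a start region. In 13 pairs a minus-strand and a plus-strand gene started within 1 kb of each other, 12 of them an H2A with an H2B. Hist1h2ac and Hist1h2bc start 250 bases apart, yet Hist1h2ac had 23.7 CPM and 43.6 CPM in RPE-like cells where Hist1h2bc had 359 CPM and 374 CPM. Hist1h2ae and Hist1h2bg start 175 bases apart, with 771 CPM and 747 CPM against 14.3 CPM and 13.6 CPM in progenitor-like cells. These are levels per UMI and are not adjusted for how well each transcript is primed or mapped.

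Within the progenitors the cell cycle was read from lists of 41 S-phase and 44 G2 and M-phase genes, none of them a clustered histone gene. Each cell was thinned to 2000 UMIs, and it was put in the S state with at least 3 S-list UMIs and more of them than of the other list, in the G2M state with at least 3 G2M-list UMIs and at least as many as S-list UMIs, and in the low state with at most 1 of each. These are ranges of a score and not phases: 27.3% of control and 26.2% of mutant progenitor-like cells lay at or next to a cut.

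The summed level was higher in the S state than in the low state, and highest in the G2M state. Low-state cells had 756 CPM (692 to 825) in 179 control cells and 1057 CPM (961 to 1161) in 102 mutant cells. The 170 control and 140 mutant cells between the low state and the cuts of the other states had 797 CPM (730 to 869) and 1020 CPM (940 to 1105), which overlaps the low state in each library. S-state cells had 1658 CPM (1630 to 1685) and 1734 CPM (1710 to 1758). G2M-state cells had 5997 CPM (5950 to 6044) and 6146 CPM (6102 to 6190). Cells with many UMIs of both lists fall in the G2M state when their G2M-list count is at least their S-list count.

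The S state was above the low state by 1.13 (1.00 to 1.26) on the log2 scale in the control and by 0.71 (0.58 to 0.85) in the mutant library, and the G2M state by 2.98 (2.86 to 3.12) and 2.54 (2.40 to 2.68). Between the states themselves, G2M was above S by 1.86 and 1.82. The S state was uneven: thinned to 2000 UMIs, its cells had a median of 1 UMI of the 65 genes without Hist3 in each library, as low-state cells had, and a 90th percentile of 8 and 9 against 2 and 3. Of 61 genes measured in both libraries, 49 were at least 2-fold higher in the G2M than in the S state in both. The share of all genes past the same limit was 2.82% (control) and 2.45% (mutant).

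Against the low state, 34 of 51 measured genes were at least 2-fold higher in the S state of the control library (11.4% of all genes) and 35 of 55 in the mutant library (15.8%). With cells thinned to 1000 UMIs, 20 of 28 measured genes in the control (16.5% of all genes) and 20 of 31 in the mutant library (22.5%) were higher. In the G2M state they were 53 of 60 (11.3% of all genes) and 54 of 61 (15.3%). The low state is small, and 9 and 20 of the genes in the S comparisons and 16 and 25 in the G2M comparisons had no UMI in it. With such genes set to a floor of 3 UMIs per library, a rule for which no share of all genes was computed, fewer genes were at least 2-fold higher. They were 27 and 18 in the S state and 45 and 40 in the G2M state, while 2 and 10 in the S state and 1 and 2 in the G2M state were at least 2-fold lower. The medians of the log2 ratios were then 1.07 and 0.42 for S, in place of 1.75 and 1.70, and 2.04 and 2.00 for G2M, in place of 3.29 and 3.28.

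Among the linker genes, Hist1h1b went from 7.36 CPM in the low state to 88.8 CPM in S and 334 CPM in G2M of the control library, and from 11.96 CPM to 77.4 CPM and 275 CPM in the mutant library. Hist1h1e, a widely used H1, went from 109 CPM to 189 CPM and 427 CPM, and from 117 CPM to 188 CPM and 442 CPM. Hist1h1c had 47.1, 36.8 and 95.3 CPM in the low, S and G2M states of the control, and 124, 51.9 and 122 CPM in those of the mutant library. Hist1h1c was thus not ordered along the states as the other linker genes were.

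Among H2A genes Hist1h2ae had 36.8, 264 and 1280 CPM in the low, S and G2M states of the control library and 47.8, 262 and 1277 CPM in the mutant library. Hist1h2ap had 28.0, 252 and 1180 CPM and 45.5, 285 and 1281 CPM. Hist1h2af had 1 UMI in the low state and 1087 in the G2M state of the control library (1.47 and 103 CPM), and 0 UMIs against 1150 in the mutant library. Hist1h2ab had the largest difference between the G2M and S states, with log2 ratios of 2.74 (2.53 to 3.19) and 2.54 (2.38 to 2.95).

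Among H2B genes Hist1h2bn had 0 UMIs in the low state of either library and 596 and 612 in the G2M state, which makes it at least 12.8-fold higher in the control and 6.94-fold higher in the mutant library, against the floor of 3 UMIs per library. Hist3h2ba ran the other way, with 177 CPM in the low, 88.9 in the S and 152 CPM in the G2M state of the control and 249, 110 and 180 CPM of the mutant library. It was thus the highest histone gene of the low state. Its log2 ratio of S over low was -0.98 (-1.27 to -0.70) and -1.18 (-1.47 to -0.88).

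Of 51 histone genes measured in both libraries, Hist3h2a was the 1 at least 2-fold lower in S than in the low state of both (0.634% of all genes), with log2 ratios of -1.61 (-2.03 to -1.24) and -1.82 (-2.28 to -1.38). Hist1h2bc was also lower, at -0.75 (-1.36 to -0.14) and -1.29 (-1.80 to -0.79). Hist3h2a, Hist3h2ba, Hist1h2bc, Hist1h2ac and Hist4h4 stayed within 2-fold between the G2M and low states of both libraries, out of 60 genes measured. Hist3h2a, Hist3h2ba and Hist1h2bc are among the genes that were highest outside the progenitors.

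Among H3 genes Hist1h3c had 4.42, 29.4 and 163 CPM in the low, S and G2M states of the control library, and 2.39, 25.8 and 154 CPM in the mutant library. Hist1h3a was different: it had 2.94, 50.3 and 31.1 CPM in the control and 2.39, 54.6 and 33.0 CPM in the mutant library. Its G2M over S log2 ratio was -0.68 (-0.91 to -0.48) and -0.71 (-0.91 to -0.55), the only gene with at least 50 UMIs that was lower in G2M than in S in either library.

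Among H4 genes Hist1h4d had 25.02, 71.9 and 298 CPM in the low, S and G2M states of the control and 31.1, 61.8 and 268 CPM of the mutant library. Hist1h4i had 17.7, 69.9 and 204 CPM and 31.1, 70.0 and 219 CPM. Both were ordered low, S, G2M in each library. Hist4h4, alone on chromosome 6, had 10.3, 4.09 and 7.78 CPM in the control and 4.79, 4.77 and 8.22 CPM in the mutant library, on few UMIs.

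To separate the lists, progenitor-like cells were binned by both at once, a choice made after the data were seen. The 65 genes without Hist3 had 524 CPM (486 to 564) in control cells with at most 2 UMIs of each list. With at least 8 S-list UMIs and at most 2 G2M-list UMIs they had 528 CPM (501 to 556), so that many S-list UMIs alone came with no higher sum. With 3 to 9 G2M-list UMIs in addition they had 1973 CPM (1917 to 2030), and with at least 10 they had 8475 CPM (8383 to 8568).

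The mutant library had 711 CPM (660 to 765), 581 CPM (558 to 603), 2088 CPM (2038 to 2139) and 8287 CPM (8211 to 8364) in the same 4 bins. Cells with at least 10 G2M-list UMIs and at most 2 S-list UMIs had 2619 CPM and 2889 CPM. The highest sums were therefore in cells with many UMIs of both lists.

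**Figure D4:**
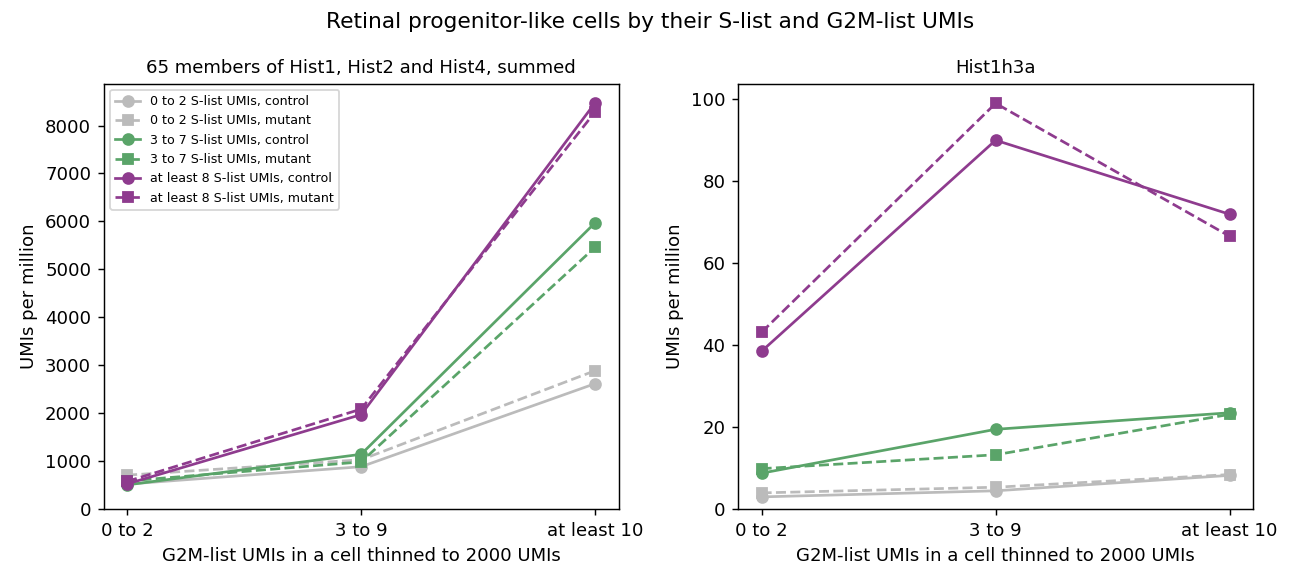
Level (CPM) in retinal progenitor-like cells binned by G2M-list UMIs (horizontal axis) and S-list UMIs (colours), for the control (solid lines) and mutant (dashed lines) libraries: the 65 genes without Hist3 (left) and Hist1h3a (right). The sum reaches 8475 and 8287 CPM where both lists are high, while Hist1h3a is highest in the middle G2M bin only in cells with at least 8 S-list UMIs (89.8 and 98.8 CPM), and in the top G2M bin in the other cells.

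In cells with at least 8 S-list UMIs, Hist1h3a departed from the sum here as well. It had 3.01 CPM and 3.98 CPM in cells low for both lists and 38.5 CPM and 43.1 CPM in cells with many S-list and few G2M-list UMIs, log2 ratios of 3.30 (2.28 to 5.58) and 3.15 (2.06 to 5.33). It reached 89.8 CPM and 98.8 CPM with 3 to 9 G2M-list UMIs and had 71.8 CPM and 66.5 CPM with at least 10. With fewer S-list UMIs it went with the sum, from 19.5 CPM and 13.3 CPM to 23.5 CPM and 23.1 CPM between these bins at 3 to 7 S-list UMIs, and from 4.49 CPM and 5.36 CPM to 8.25 CPM and 8.45 CPM at 0 to 2. In the same comparison of S-list-only cells with cells low for both lists, 2 of 25 measured genes were at least 2-fold higher in the control (6.81% of all genes) and 3 of 29 in the mutant library (7.44%), while 3 and 4 were at least 2-fold lower (1.86% and 1.6% of all genes).

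The higher genes were Hist1h3a and Hist1h2bm in both libraries, and Hist1h4a in the mutant library. Hist1h2bm, an H2B gene, had 36 against 2 UMIs and 66 against 4. The median log2 ratio of the measured histone genes was 0.00 in the control and -0.01 in the mutant library, and those of all genes 0.03 and 0.05. The lower genes were Hist3h2ba, with log2 ratios of -1.51 and -1.21, Hist3h2a, with -1.49 and -1.85, Hist1h2bc, with -1.46 and -1.89, and in the mutant library Hist1h1c, with -1.34.

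The same states in neurogenic-like cells gave like levels. The sum was 887 CPM and 875 CPM in the low state, 1778 and 1909 CPM in the S state, and 5571 and 6006 CPM in the G2M state. In these cells 21.7% of the control and 16.8% of the mutant cells were in the low state, against 4.38% and 2.14% of progenitor-like cells.

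Genes that act on histone messages or proteins were compared in the same cells, by lists of replacement histones, processing and transcription factors, chaperones and degradation factors. Ccne2, Chaf1b and Cenpa are also in the S or G2M list, so the state rule used them, and they are left out of the counts here. Nasp, which encodes a histone chaperone, stands in both the processing and the chaperone list and is counted in both. Of 14 measured genes for the transcription and 3′ end processing of histone messages, 8 were at least 2-fold higher in the S than in the low state of the control and 7 of 14 in the mutant library (11.4% and 15.8% of all genes). They included Slbp, which encodes the stem-loop binding protein, with log2 ratios of 2.29 and 3.499.

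Between the G2M and S states, 0 of the processing genes passed 2-fold in either direction (of all genes, 2.82% and 2.45% were higher and 2.41% and 1.96% lower), and Slbp had log2 ratios of -0.85 and -0.74. The summed histone level was thus higher in the G2M state and Slbp higher in the S state. Of 11 chaperone genes, 5 were at least 2-fold higher in S than in the low state of each library (11.4% and 15.8% of all genes). Among them was Chaf1a, a subunit of the replication-coupled assembly factor CAF-1, with 2.93 and 5.55. Asf1b, which hands H3 and H4 to assembly factors, was the 1 chaperone 2-fold higher in G2M than in S (2.82% and 2.45% of all genes), with 1.12 and 1.14. Of 5 degradation genes, 0 in the control and 1 (Dis3) in the mutant library were 2-fold higher in S than in the low state, counts too small to set apart from the 11.4% and 15.8% of all genes.

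Replacement histones are encoded outside the clusters, most of them by polyadenylated messages. Of 10 measured, 1 (H2afx) was at least 2-fold higher in S than in the low state of each library, with 1.88 and 1.31, a share near or below that of all genes (11.4% and 15.8%). In G2M over S, 3 (H2afx, H1f0 and H1fx) were at least 2-fold higher, above the share of all genes given before for that comparison. Between amacrine-like and progenitor-like cells, 1 of the 11 listed (Cenpa included) was at least 2-fold higher and 5 lower in the control (13.3% and 16.1% of all genes), and 2 higher and 6 lower in the mutant library (13.5% and 16.6%), with medians of -0.92 and -1.01. H2afy2, a macroH2A, was the highest, with log2 ratios of 1.35 and 1.34. In amacrine-like cells H3f3a and H3f3b, which encode H3.3, had amacrine-like over progenitor-like log2 ratios of 0.91 and 1.01, and of 0.73 and 0.77. H2afz, a replacement H2A, had -1.62 and -1.54.

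A cell's chance of holding any histone UMI did not follow the summed level. After thinning each cell to 1000 UMIs, 69.3% (67.9 to 70.7) of 4235 control and 71.2% (69.9 to 72.5) of 4914 mutant progenitor-like cells had at least 1, and 79.3% and 82.1% of amacrine-like cells did. In red blood-like cells the share was 37.7% (28.8 to 47.3) and 29.8% (20.3 to 40.7), and in mesenchyme or pericyte-like cells 28.6% and 30.3%. Unthinned, the shares of progenitor-like cells were 93.3% and 95.8%, of amacrine-like cells 98.0% and 98.1% and of red blood-like cells 66.2% and 77.3%, at median depths of 4500 and 4728, 4941 and 5414, and 3657 and 11715 UMIs.

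By gene, thinned to 1000 UMIs, Hist3h2ba was seen in 62.6% and 65.8% of amacrine-like, 24.0% and 32.1% of photoreceptor-like and 11.3% and 13.3% of progenitor-like cells, against 3.51% and 3.57% of red blood-like cells. Hist1h2ap was seen in 29.8% and 30.6% of progenitor-like cells and in 2.16% and 4.03% of amacrine-like cells, against 11.4% and 9.52% of red blood-like and 2.53% and 3.66% of mesenchyme or pericyte-like cells. Hist1h2bc was seen in 21.8% and 20.9% of RPE-like cells and in 1.75% and 4.76% of red blood-like cells. In the G2M state, progenitor-like cells thinned to 2000 UMIs held a median of 12 UMIs of the 65 genes in each library, against 1 in the low and S states.

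Between the genotypes, over all kept cells, the summed level differed by less than 2-fold in all 7 classes with at least 100 cells in each library. The mutant over control log2 ratio of the sum was 0.01 (0.00 to 0.03) in retinal progenitor-like, 0.15 (0.13 to 0.18) in neurogenic-like, 0.27 (0.22 to 0.32) in photoreceptor-like and 0.08 (0.04 to 0.13) in amacrine-like cells. It was 0.13 (0.06 to 0.20) in RPE-like, 0.36 (0.31 to 0.41) in mesenchyme or pericyte-like and -0.01 (-0.11 to 0.08) in endothelial-like cells. The medians over all genes of these comparisons lay between -0.02 and 0.05. With cells thinned to 1000 UMIs the values were -0.0283 in RPE-like and -1.03 in endothelial-like cells, the classes among these 7 whose median depth differed most between the libraries (4240 and 8895 UMIs in endothelial-like cells). In the cells of at most 2000 UMIs the sum was lower in the mutant library in neurogenic-like (-0.62), amacrine-like (-0.63), RPE-like (-0.38) and endothelial-like cells (-1.98). Few mutant cells were that shallow: 1077 of 1110 neurogenic-like, 949 of 978 amacrine-like, 169 of 214 RPE-like and 151 of 171 endothelial-like cells had at least 2000 UMIs. These values are given without an interval and cannot settle a direction. In such cells the sign differed from that of all kept cells in the neurogenic-like, amacrine-like and RPE-like classes, and the endothelial-like value was past 2-fold.

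**Figure D5:**
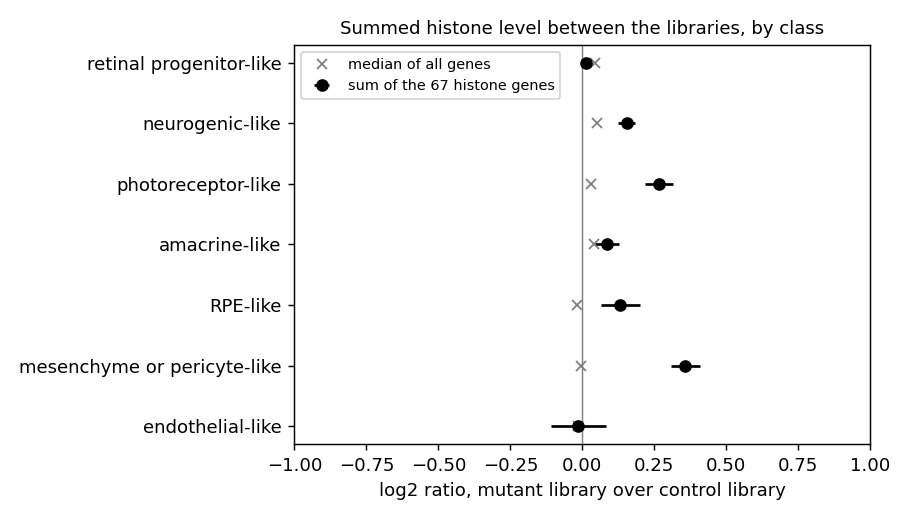
Mutant over control log2 ratio of the summed level of the 67 histone genes in 7 cell classes (points, with 95% intervals for counting error) beside the median over all genes (crosses). All 7 sums lie within 2-fold, between -0.01 in endothelial-like and 0.36 in mesenchyme or pericyte-like cells.

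At the level of genes, 4 values passed 2-fold over the 7 classes with a limit of at least 50 UMIs and 18 with at least 1 UMI, limits for which no share of all genes is given. At the limit of 20 UMIs used here, 7 values passed 2-fold. None of 62 measured genes did in retinal progenitor-like cells, where 0.847% of all genes did, none of 37 in photoreceptor-like (1.73% of all genes) and none of 32 in amacrine-like cells (1.95%). In neurogenic-like cells 1 of 57 did (1.39% of all genes), Hist2h3c1, with 73 mutant and 28 control UMIs. None of the transcript windows of Hist2h3c1 is unique (0%), and it overlaps Gm20634 on the same strand, so its counts are uncertain. In RPE-like cells 3 of 28 did (7.54% of all genes), and in endothelial-like cells 1 of 24 (3.85%).

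The RPE-like genes were Hist1h2br (20 against 6 UMIs, higher in the mutant library, with 0.171% of its windows unique), Hist1h1d (39 against 24, higher) and Hist1h4a (5 against 27, lower), all on few UMIs and in a class whose cells were deeper in the mutant library. The endothelial-like gene was Hist1h3c, with 7 against 42 UMIs. In mesenchyme or pericyte-like cells 2 of 41 passed (0.482% of all genes), Hist1h1b, with 21.7 CPM against 8.32 CPM (log2 ratio 1.28, 1.07 to 1.70), and Hist1h2ap, with 64.4 CPM against 27.9 CPM (1.18, 1.03 to 1.38).

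In those cells Hist1h1c and Hist1h2bc, which were not ordered by cycle state, had ratios of -0.06 (-0.19 to 0.06) and -0.02 (-0.16 to 0.12). The share of mesenchyme or pericyte-like cells in the S state was 12.2% (10.5 to 14.1) in the control and 12.8% (10.6 to 15.1) in the mutant library, and in the G2M state 5.23% (4.11 to 6.55) and 5.38% (3.99 to 7.06). The class was made of 6 clusters in unequal shares (the largest held 34.1% of control and 24.1% of mutant cells). The sum was higher in the mutant library in 5 of the 6. What part the mix of cells has in the difference was not tested.

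Over all retinal progenitor-like cells the differences of single genes were within 2-fold. Hist2h3c1, whose counts are uncertain, had 11.03 CPM in the mutant and 6.09 CPM in the control library (log2 ratio 0.76, 0.55 to 1.17), and Hist1h2bc 49.0 and 35.5 CPM (0.45, 0.33 to 0.60). Hist1h1b had 171 and 209 CPM, a ratio of -0.29 (-0.35 to -0.23). The S state held 46.9% (45.3 to 48.4) of control and 52.4% (50.9 to 53.8) of mutant progenitor-like cells and the G2M state 44.6% (43.1 to 46.2) and 42.6% (41.2 to 44.0). Within the S state the sum was 1658 and 1734 CPM, and within the G2M state 5997 and 6146 CPM.

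The low state held 4.38% (3.77 to 5.05) of control and 2.14% (1.75 to 2.59) of mutant progenitor-like cells with at least 2000 UMIs, and its sums of 756 and 1057 CPM have intervals that do not overlap. Hist1h1c and Hist1h2bc are given here as genes chosen after their values were seen. Hist1h1c had 47.1 CPM (32.2 to 66.5) and 124 CPM (92.9 to 163) there, and Hist1h2bc had 39.7 CPM (26.2 to 57.8) and 88.5 CPM (62.3 to 122.0). They were the 2 of 11 measured histone genes past 2-fold between the libraries in these 179 and 102 cells (4.45% of all genes), on 27 to 52 UMIs each. In the low state of neurogenic-like cells 0 of 14 passed (3.54% of all genes), with 50.7 CPM and 50.8 CPM of Hist1h1c and 42.6 CPM and 70.6 CPM of Hist1h2bc, and the sums were 887 CPM and 875 CPM.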

How the data were processed

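Single-cell RNA-seq (10x 3′ libraries, primed on poly(A)) measured 1 Myrf fl/fl and 1 Rx>cre Myrf fl/fl library of pooled P0 eye cups. The deposited values are UMI counts per gene and barcode, which the authors made with Cell Ranger (7.1.0 in the submitters' processing notes) on mm10 and deposited without normalization. The members and gene lists here were chosen with earlier results of these data known.

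Barcodes with at least 200 genes and at most 15% mitochondrial UMIs were kept. Scrublet, as implemented in scanpy, called 0% and 5.46% doublets by its own threshold, so the expected rate was used instead, and 1646 control and 1214 mutant barcodes (11.6% and 10.1%) were removed. Cells were clustered with Seurat 5.3.0 (R 4.3.3; 2000 variable genes, 30 components, resolution 1), without the histone genes and cycle lists, and named "-like" from at least 3 markers.

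Counts were summed per class and library. A gene was measured with at least 20 UMIs over the groups compared, and called past 2-fold. Named genes were those with at least 200 UMIs over both libraries, and in each comparison the 5 with the largest difference each way. Some other values were chosen after they were seen, the binning by both lists among them. That 3 list genes also stand in the S or G2M list was found after the data were seen, and they were then left out of the list counts. Code was tested on simulated counts. Alternatives are given in the closing section.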

Additional observations from a re-analysis of the deposited data

How the results depend on the processing

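Values are log2 ratios unless stated. Mutant over control sums moved beyond their counting interval as follows. With at most 5% mitochondrial UMIs they were -0.0375 (retinal progenitor-like) and 0.10 (neurogenic-like). In cells of at most 2000 UMIs, few of them in the mutant library, they were 0.14 (retinal progenitor-like), -0.62 (neurogenic-like), -0.63 (amacrine-like), -0.38 (RPE-like), 0.53 (mesenchyme or pericyte-like) and -1.98 (endothelial-like). In cells of at least 2000 UMIs the endothelial-like value was 0.12. With doublets kept they were 0.11 (neurogenic-like), 0.22 (RPE-like), 0.27 (mesenchyme or pericyte-like) and 0.32 (endothelial-like). CPM without mitochondrial, ribosomal and haemoglobin genes gave -0.0026 (retinal progenitor-like) and 0.12 (neurogenic-like). Cells thinned to 1000 UMIs gave 0.0321, 0.25, -0.0283, 0.22 and -1.03 (retinal progenitor-like, neurogenic-like, RPE-like, mesenchyme or pericyte-like and endothelial-like). Without the top gene the retinal progenitor-like value was 0.0283, and without integration the retinal progenitor-like and neurogenic-like values were 0.0452 and 0.0899. Genotype differences past 2-fold numbered 4 with at least 50 UMIs and 18 with at least 1 UMI, without a share of all genes at these limits.

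Progenitor-like over photoreceptor-like sums (control, then mutant where both moved) were 1.61 (5% mitochondrial, control), 0.89 and 0.79 (at most 2000 UMIs), 1.61 and 1.36 (reduced CPM), 1.46 and 1.18 (thinned), 1.32 and 1.07 (without the top gene), and 2.34 and 2.10 without the 2 Hist3 genes, an alternative chosen after seeing the data. S over low sums were 1.28 (5% mitochondrial, control), 0.93 (thinned, control), 0.95 and 0.54 (without the top gene), 1.49 and 1.18 (score phases), and 1.68 and 1.20 (without Hist3). G2M over low sums were 2.84 (reduced CPM, control), 2.71 and 2.27 (without the top gene), 2.71 (score phases, mutant), and 3.59 and 3.09 (without Hist3). Thinned cells gave 20 genes past 2-fold in S over low in each library. Shares of cells with a histone UMI were 84.7% and 85.7% (progenitor-like) and 84.5% and 90.6% (photoreceptor-like) at 2000 UMIs, and unthinned 93.3%, 95.8%, 90.9% and 95.4%.

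Of 184 single-gene values past 2-fold, 1228 alternatives gave 1185 of the same direction past 2-fold, 36 below it and 7 of opposite sign. With a state cut of 2 these were Hist2h2bb (-0.67) and Hist4h4 (2.36) in S over low and Hist2h3c1 (-0.027) in G2M over low of the control, and Hist2h4 (-0.0613) and Hist1h4b (-0.14) in G2M over low of the mutant library. With at most 5% mitochondrial UMIs it was Hist4h4 (0.81, S over low, control), and in thinned cells Hist1h2ab (-0.20, S over low, mutant). The cause was not tested. Cells of at most 2000 UMIs cannot give states, and the setting of at least 2000 leaves states as they are. No replicate could be left out, and no paired analysis was possible because each genotype has 1 library. The low state holds 179 and 102 cells, which limits its values.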
